A study of Mus musculus with 12 samples.

Results

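The genes described here are the mouse insulin-like growth factors (Igf1 and Igf2), their receptors (Igf1r and Igf2r) and 6 genes of the binding protein family (Igfbp2, Igfbp3, Igfbp4, Igfbp5, Igfbp6 and Igfbp7). They were found by symbol, and all 10 were listed among the 43280 entries of one expression table and among the 23930 entries of the other. The set was chosen from earlier results of the same libraries, in which Igfbp7 and Igf2 already stood out, so the changes of these 10 genes are given as a description and support nothing on their own. The libraries came from MEF cells, fibroblasts of C57BL/6 mouse embryos that had been immortalized spontaneously by passaging. In the first experiment, MEF cells carrying a retroviral vector with a FLAG-tagged cDNA of human IDH2 with a cancer-associated mutation (2MUT) were compared with MEF cells carrying the mock vector (Control), with 3 libraries in each group. In the second, MEF cells given 300 μM of membrane-permeant 2-HG (2-hydroxyglutarate, the product of the mutant enzyme) for 24 h, called 2-HG(+), were compared with MEF cells labelled as given DMSO for 24 h, which the study's text describes as non-treated, called 2-HG(-), again with 3 libraries in each group. Cells expressing wild-type IDH2 were not among the libraries, so the change in 2MUT cannot be told apart from that of expressing any IDH2. The labels do not say that the 3 libraries of a group came from separate cultures, so the errors given here measure the spread between libraries, which may be technical.

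IGF1 and IGF2 are secreted peptides that activate IGF1R, a receptor tyrosine kinase which signals to growth and survival through the insulin receptor substrates, PI3K and Akt. IGF2R, also known as the cation-independent mannose 6-phosphate receptor, has no kinase and takes IGF2 up for breakdown in the lysosome. The binding proteins hold the ligands in the matrix or in solution, and proteases such as pappalysin set the ligands free by cutting them. Fibroblasts of the embryo make ligands, receptors and binding proteins together, and the paternal copy of Igf2 and the maternal copy of Igf2r are the active ones in most tissues of the mouse embryo.

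The 5 genes on which the results turn lie on 4 chromosomes in GRCm38, by the GENCODE M21 annotation. Igf1 spans chr10:87858265-87937042 on the + strand, Igf2 chr7:142650766-142666816 on the - strand, Igf1r chr7:67952827-68233668 on the + strand, Igfbp4 chr11:99041244-99054392 on the + strand and Igfbp7 chr5:77349240-77408041 on the - strand, and all 5 are protein-coding. The 250 bases before a RefSeq transcript start of each (GRCm38.p6) are printed below, read 5′ to 3′ on the strand of the gene, because Igf1, Igf1r and Igfbp7 moved in opposite directions in the 2 experiments while Igf2 and Igfbp4 were lower in both. Capitals mark matches, on either strand, to 6 motifs, which were TATAAA for the TATA box, GGGCGG for the GC box, CCAAT for the box of that name, ACGTG or else GCGTG for the core of the hypoxia response element, TGANTCA for the AP-1 site and GTAAACA for the forkhead site. The windows are those of chr10:87860861-87861110 for Igf1, chr7:67952007-67952256 for Igf1r, chr5:77408046-77408295 for Igfbp7, chr7:142658805-142659054 for Igf2, which is the richest in CpG of the 4 windows of that gene, and chr11:99040994-99041243 for Igfbp4. RefSeq and GENCODE starts need not coincide, and the windows of Igf1 and Igf2 lie inside the GENCODE genes, that of Igf1r ends some way before the GENCODE start, and those of Igfbp4 and Igfbp7 end at or within a few bases of it.
Igf1: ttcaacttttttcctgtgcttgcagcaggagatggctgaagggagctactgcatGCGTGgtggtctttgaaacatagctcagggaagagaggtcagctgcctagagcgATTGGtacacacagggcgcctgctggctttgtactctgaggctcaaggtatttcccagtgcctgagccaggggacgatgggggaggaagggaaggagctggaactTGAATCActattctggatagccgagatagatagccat
Igf1r: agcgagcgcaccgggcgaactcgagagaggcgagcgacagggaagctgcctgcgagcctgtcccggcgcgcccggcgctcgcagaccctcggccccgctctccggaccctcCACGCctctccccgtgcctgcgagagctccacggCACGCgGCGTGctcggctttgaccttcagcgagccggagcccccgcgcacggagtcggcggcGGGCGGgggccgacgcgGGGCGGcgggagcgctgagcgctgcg
Igfbp7: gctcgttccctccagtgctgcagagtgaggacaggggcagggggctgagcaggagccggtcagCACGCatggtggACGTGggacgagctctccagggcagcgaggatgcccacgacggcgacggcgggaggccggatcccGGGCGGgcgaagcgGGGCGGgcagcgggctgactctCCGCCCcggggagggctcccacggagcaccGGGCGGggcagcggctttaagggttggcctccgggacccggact
Igf2: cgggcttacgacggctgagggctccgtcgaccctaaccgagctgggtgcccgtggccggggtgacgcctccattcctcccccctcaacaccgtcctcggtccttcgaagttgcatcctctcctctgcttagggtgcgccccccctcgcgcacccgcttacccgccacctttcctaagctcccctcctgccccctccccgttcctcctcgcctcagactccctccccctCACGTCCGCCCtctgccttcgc
Igfbp4: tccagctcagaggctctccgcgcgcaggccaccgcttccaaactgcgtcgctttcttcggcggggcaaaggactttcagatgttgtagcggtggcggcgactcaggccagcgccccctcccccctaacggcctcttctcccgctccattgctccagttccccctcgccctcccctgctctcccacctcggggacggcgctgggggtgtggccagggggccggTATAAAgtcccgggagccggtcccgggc

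The windows differed in base composition. That of Igf1r held 42 CpG dinucleotides, more than 99.1% of the 32851 RefSeq windows of this length, and that of Igfbp7 held 26, more than 90.4% of them. The shown Igf2 window and the Igfbp4 window held 22 each, the Igf1 window held 5, and the median over all windows was 6. The shown Igf2 window was picked for its CpG count, and the other windows of Igf2 held 6, 10 and 1. Igfbp7 had 4 GC boxes and 2 hypoxia element cores, and Igf1r had 2 GC boxes and 3 such cores. Igf1 had 1 CCAAT match, 1 hypoxia element core and 1 AP-1 match, the last of them starting 37 bases before the transcript start, and Igfbp4 had a TATA box starting 28 bases before it. The shown Igf2 window had 1 GC box and 1 hypoxia element core, which adjoin. Among all windows a GC box was found in 32.7%, a hypoxia element core in 38.6%, CCAAT in 33.9%, a TATA box in 12.4%, an AP-1 match in 6.75% and a forkhead match in 3.17%, and the matches are a description of the sequence, not of binding.

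Expression was given as RPM, a gene's share of all gene-assigned reads scaled to 1000000, and 1 short target was amplified per gene, so levels were compared between groups and never between genes. The libraries held 6472439 to 7313602 reads on genes in the 2MUT and Control table and 14959318 to 18363768 in the 2-HG table, and 3 reads were worth 0.410 to 0.464 RPM and 0.163 to 0.201 RPM, respectively. A gene was tested with a mean of at least 1 RPM over the 6 libraries of its table, and a change is the difference in log2(RPM + 1) with its standard error (SE), called where limma's Benjamini-Hochberg adjusted p over all tested genes was under 0.05. By this rule 33.8% of the 11065 tested genes changed in 2MUT cells, 16.5% of them upwards and 17.3% downwards, and 32.8% of the 10384 tested genes changed with 2-HG, 16.1% upwards and 16.7% downwards. Mouse Idh2, the endogenous counterpart of the transgene, was at 77.3 ± 5.54 RPM (SD, n = 3) in Control and 49.6 ± 6.39 in 2MUT cells, and at 177 ± 14.3 and 238 ± 19.2 RPM in 2-HG(-) and 2-HG(+) cells, and both changes were past the threshold. The human transgene itself was not measured by an entry used here, so this gene does not check the labels. Of 12 fibroblast markers, 10 had a mean of at least 1 RPM in each table, whereas epithelial, endothelial, adipocyte and muscle markers summed to at most 4.56 RPM in any library, with Epcam, Krt18 and Myod1 listed at 0 throughout. Blood markers summed to 7.16 to 14.6 RPM and neural markers to 10.6 to 23.1 RPM per library, and with 2-HG 1 blood marker was lower, 1 neural marker was higher and 1 neural marker was lower.

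Of the 7 genes of the set that could be tested in 2MUT cells, 5 were past the threshold, beside 33.8% of all tested genes. Igf1, Igf1r and Igfbp7 were higher, Igf2 and Igfbp4 were lower, and Igf2r and Igfbp6 were not past it. With 2-HG, 5 of the 7 were again past the threshold, beside 32.8% of all tested genes, and all 5 were lower, namely Igf1, Igf2, Igf1r, Igfbp4 and Igfbp7. The median change of the 7 genes was 0.22 in 2MUT cells and -0.94 with 2-HG, where the medians of all tested genes were 0.01 and -0.02. Because the set was selected on these contrasts, nothing is read from these shares.

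Igf1, the ligand of IGF1R that mediates much of the action of growth hormone, was scarce in all libraries. In Control cells it was at 0.444, 1.42 and 1.23 RPM (3, 10 and 9 reads), and in 2MUT cells at 7.26, 9.08 and 6.05 RPM (47, 62 and 44 reads). Every 2MUT library was thus above every Control library. The means were 1.03 ± 0.519 RPM (SD, n = 3) and 7.46 ± 1.52 RPM, a ratio of 7.23, and the change was 2.08 (SE 0.26) on the log2(RPM + 1) scale, which understates the fold of a gene this low. With an added value of 0.1 RPM the change was 2.85. In bulk RNA, fewer cells expressing a gene and less RNA per cell cannot be told apart, here or for the other genes.

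The same ligand went the other way under the treatment. Igf1 was at 5.99, 6.02 and 6.84 RPM (110, 90 and 114 reads) in 2-HG(-) cells and at 0.992, 1.74 and 1.70 RPM (15, 29 and 26 reads) in 2-HG(+) cells, so that the groups did not overlap. The mean was 6.28 ± 0.486 RPM without and 1.48 ± 0.422 RPM with 2-HG, 4.25 times lower with it, and the change was -1.57 (SE 0.17).

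Igf2, the fetal growth ligand, was lower in both experiments. Control libraries held 22.3, 27.4 and 25.02 RPM, and 2MUT libraries 7.42, 9.22 and 8.53 RPM. The groups were well apart, with means of 24.9 ± 2.51 and 8.39 ± 0.912 RPM (SD, n = 3), a level 2.97 times lower in 2MUT cells and a change of -1.46 (SE 0.16). In 2-HG(-) cells Igf2 was at 3.54, 2.94 and 3.12 RPM (65, 44 and 52 reads), and in 2-HG(+) cells at 0.529, 0.962 and 0.392 RPM (8, 16 and 6 reads). These groups did not overlap either, and the mean fell from 3.20 ± 0.307 to 0.628 ± 0.298 RPM, which is 5.10 times lower. The change of -1.38 (SE 0.17) on the log2(RPM + 1) scale became -2.25 with an added value of 0.1 RPM, since the treated libraries held so few reads. Around Igf2 on chromosome 7, the noncoding RNA H19, 72622 bases away, was at or below 0.72 RPM in every library.

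**Figure D1:**
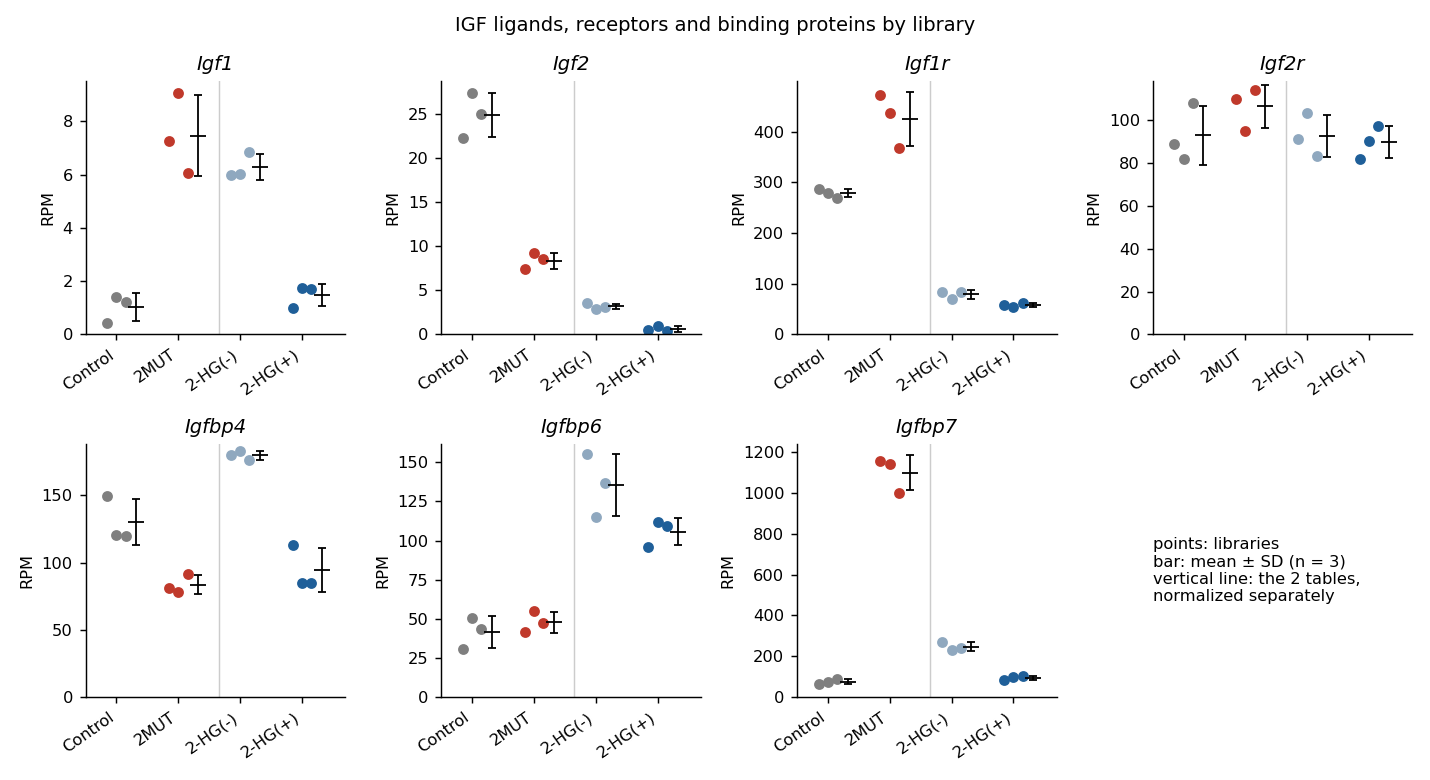
Levels of the 7 tested genes in RPM (linear vertical axes starting at 0) in each of the 12 libraries, by group (Control, 2MUT, 2-HG(-), 2-HG(+)), with the mean ± SD of 3 libraries beside the points. The grey vertical line parts the 2 tables, which were normalized separately. Igfbp7 stood between 998 and 1153 RPM in 2MUT cells and at most at 272 RPM in all other libraries, and Igf1 was high in 2MUT and in 2-HG(-) cells.

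Among the receptors, Igf1r, which carries the signal of both ligands, moved in the same directions as Igf1 but by less. Control libraries had 286, 279 and 269.9 RPM and 2MUT libraries had 472, 436 and 368 RPM. No 2MUT library was as low as a Control library, the means were 278 ± 8.23 and 426 ± 53.1 RPM (SD, n = 3), 1.53 times higher in 2MUT cells, and the change was 0.60 (SE 0.10). In 2-HG(-) cells the level was 83.8, 69.7 and 83.3 RPM, and in 2-HG(+) cells 58.6, 53.6 and 61.4 RPM. The groups did not overlap, and the means of 78.9 ± 8.04 and 57.9 ± 3.91 RPM gave a level 1.36 times lower with 2-HG and a change of -0.44 (SE 0.11). This last change is the least firm of those past the threshold. It was -0.39, -0.40 and -0.39 and no longer past it when 2-HG(-) replicate 1, 2-HG(-) replicate 3 or 2-HG(+) replicate 2 was left out.

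Igf2r, which clears IGF2 from the cell surface, was the steadiest of the 7 genes. It was at 88.8, 81.5 and 108 RPM in Control and 109.7, 94.9 and 114 RPM in 2MUT cells, and at 90.9, 103 and 83.2 RPM in 2-HG(-) and 81.8, 90.0 and 96.8 RPM in 2-HG(+) cells. The groups overlapped in both experiments. The changes were 0.20 (SE 0.13) and -0.04 (SE 0.11), neither past the threshold. The first was 0.11 without Control replicate 2 and 0.31 without Control replicate 3, and the sign of the second turned when 2-HG(-) replicate 2 or 2-HG(+) replicate 1 was left out.

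Igfbp7 showed the widest contrast between the experiments. Its protein, a secreted member of the wider family that binds IGFs only weakly, is known as a matrix-associated factor. It was at 63.2, 73.8 and 90.0 RPM in Control and at 1153, 1142 and 998 RPM in 2MUT cells. The groups were thus far apart. The means were 75.6 ± 13.5 and 1098 ± 86.3 RPM (SD, n = 3), a ratio of 14.5, and the change of 3.85 (SE 0.13) was the rise of rank 5 among 11065 tested genes. In the other table Igfbp7 was at 272, 229.9 and 239 RPM in 2-HG(-) cells and at 82.6, 97.5 and 104 RPM in 2-HG(+) cells. All 2-HG(+) libraries were below those of 2-HG(-), with means of 247 ± 22.3 and 94.8 ± 11.1 RPM, 2.61 times lower with 2-HG, and a change of -1.38 (SE 0.12), the fall of rank 196 among 10384 genes.

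Igfbp4, whose protein restrains IGF action until pappalysin cuts it, was lower in both experiments. Control libraries held 149.7, 120.2 and 119.8 RPM and 2MUT libraries 81.0, 78.0 and 91.4 RPM. They did not overlap, and the means of 129.9 ± 17.2 and 83.5 ± 7.01 RPM (SD, n = 3) gave a level 1.56 times lower and a change of -0.63 (SE 0.12). In 2-HG(-) cells the level was 180.2, 183 and 176 RPM and in 2-HG(+) cells 113, 84.7 and 84.8 RPM. The means, 179.8 ± 3.20 and 94.2 ± 16.4 RPM, again without overlap, differed 1.91 times, with a change of -0.94 (SE 0.12).

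Igfbp6, whose protein prefers IGF2 over IGF1, was not past the threshold in either experiment. It was at 30.8, 50.6 and 43.5 RPM in Control and 41.6, 54.9 and 47.1 RPM in 2MUT cells, which overlapped, with a change of 0.22 (SE 0.18) that was 0.019 without Control replicate 1, 0.37 without Control replicate 2 and 0.11 without 2MUT replicate 2. It was at 155, 115 and 137 RPM in 2-HG(-) and 95.7, 112 and 109 RPM in 2-HG(+) cells, with every 2-HG(+) library below every 2-HG(-) one, and the change was -0.35 (SE 0.12). With edgeR, DESeq2 or quantile normalization, or without 2-HG(-) replicate 2, this change, then -0.35, -0.35, -0.41 and -0.46, did pass the threshold.

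**Figure D2:**
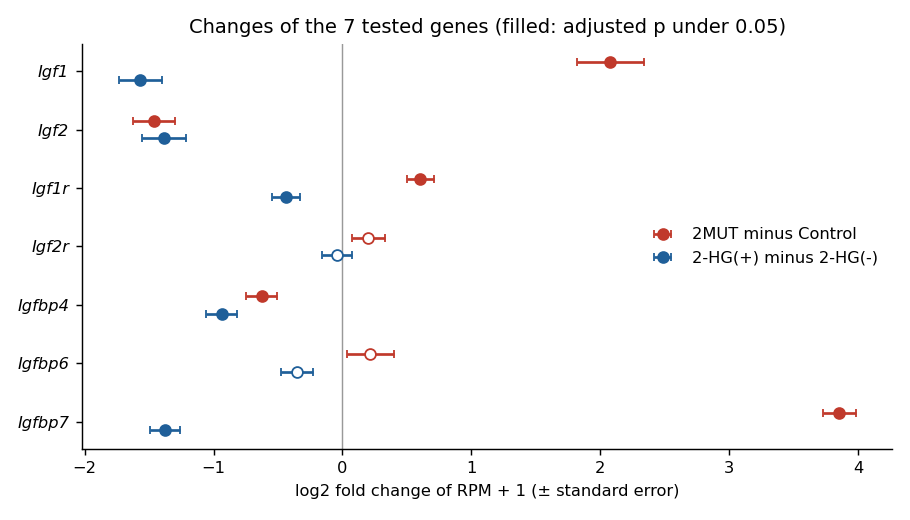
Changes of the 7 tested genes on the log2(RPM + 1) scale, as points with their standard errors, in 2MUT against Control (red) and in 2-HG(+) against 2-HG(-) (blue), filled where the adjusted p over all tested genes was under 0.05. Igf1, Igf1r and Igfbp7 lie on opposite sides of 0 in the 2 experiments, at 2.08 and -1.57, 0.60 and -0.44, and 3.85 and -1.38, and Igf2 and Igfbp4 lie below 0 in both.

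The remaining binding proteins were hardly read. Igfbp2 had 9 reads in all 12 libraries together and at most 3 in any, and Igfbp3 had 14 reads and at most 3 in any, so that both stayed at or below 0.444 RPM and were not tested. Most of the Igfbp3 reads, 7 in Control and 5 in 2MUT cells, came from the 2MUT and Control table. Igfbp5 was listed at 0 in all 12 libraries. Since 2 of 76 ribosomal protein entries (Rpl24 and Rpl39), which every cell uses, were also listed at 0 throughout in the 2MUT and Control table, a listed 0 there does not show that the RNA is absent. Of 16 such entries in the 2-HG table, 0 were listed at 0 throughout, and whether the Igfbp5 target was amplified was not tested. In the genome these genes form pairs that face each other with their 3′ ends. Igfbp2 (chr1:72824503-72852474, + strand) and Igfbp5 (chr1:72857932-72874884, - strand) lie 5457 bases apart, and Igfbp3 (chr11:7206086-7213923, - strand) lies 3539 bases from Igfbp1, which had at most 1 read in any library. Igfbp6 spans chr15:102144362-102149511 on the + strand.

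The changes in the 2 experiments were next set against each other. The experiments share no libraries, and the difference of the changes (2MUT minus 2-HG) was fitted over all 12 libraries for the 9594 genes tested in both tables, of which 39.4% were past the threshold. For 3 of the 7 genes the difference was past it, at 3.65 (SE 0.31) for Igf1, 1.04 (SE 0.16) for Igf1r and 5.23 (SE 0.19) for Igfbp7, and the last was the difference of rank 4 by size. Those 3 genes are also the ones that were past the threshold in both experiments with opposite signs. For the genes lower in both, the difference was -0.08 (SE 0.23) for Igf2 and 0.31 (SE 0.18) for Igfbp4. A difference that misses the threshold does not show equal changes, and for Igf2 its sign depended on the value added before the logarithm, being 0.69 with 0.1 RPM. Igf2r had a difference of 0.24 (SE 0.18) and Igfbp6 one of 0.57 (SE 0.24), which was 0.37 without Control replicate 1.

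**Figure D3:**
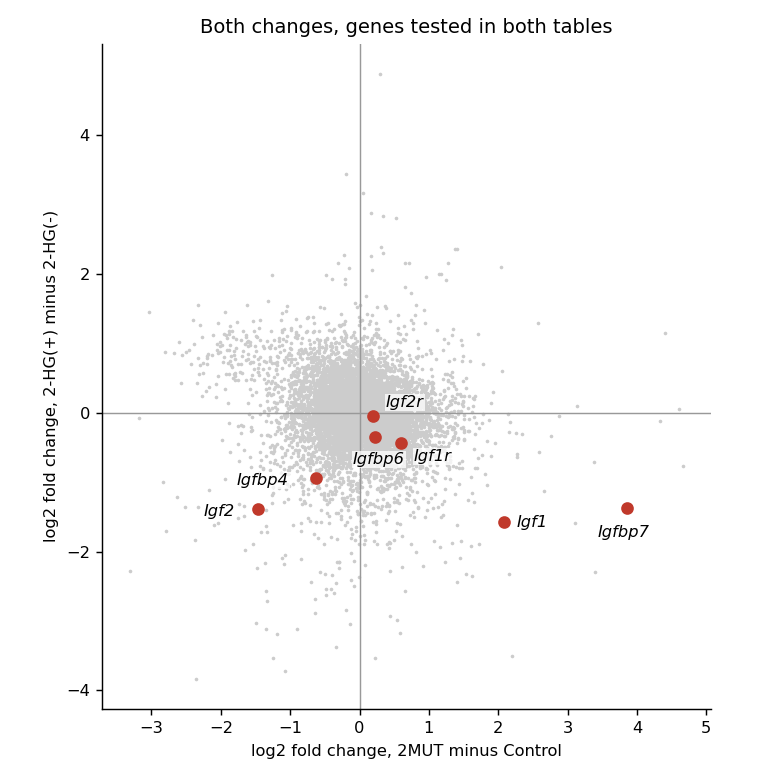
Change in 2MUT against Control (horizontal) and in 2-HG(+) against 2-HG(-) (vertical), both on the log2(RPM + 1) scale, for the genes tested in both tables (grey), with the 7 genes of the IGF set in red. Igfbp7 and Igf1 lie far to the lower right, apart from most genes, and Igf2 and Igfbp4 lie to the lower left.

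The Control and 2-HG(-) cells, the baselines of the 2 experiments, themselves differed in these genes. The tables were normalized separately and list different entries, although 97.5% to 98.8% of the reads of a library fell on names found in both, so the ratios are given without a test. The mean of 2-HG(-) cells was 6.08 times that of Control cells for Igf1 and 3.26 times for both Igfbp6 and Igfbp7, and that of Control cells was 7.78 times that of 2-HG(-) cells for Igf2 and 3.53 times for Igf1r. Igf2r was level, at 92.7 ± 13.6 and 92.4 ± 9.94 RPM (SD, n = 3). In order of mean level, Igf1 ran from Control through 2-HG(+) and 2-HG(-) to 2MUT cells, and its neighbours at either end, Control with 2-HG(+) and 2-HG(-) with 2MUT, overlapped in their libraries. Igfbp7 ran in the same order, with Control and 2-HG(+) overlapping at 63.2 to 90.0 and 82.6 to 104 RPM. Igf2 was highest in Control, then in 2MUT, 2-HG(-) and 2-HG(+) cells, with no overlap between neighbours. The groups differ in vector, in the puromycin selection that the study describes for cells with a vector, in labelled treatment and in table. The parts of these cannot be told apart.

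Other genes of the IGF axis were taken from 5 lists of 74 symbols in all, some of them older and newer symbols of the same gene. In 2MUT cells 44 were tested and 19 changed, 13 upwards and 6 downwards, with a median change of 0.18, beside 16.5% and 17.3% of all tested genes. With 2-HG 41 were tested and 18 changed, 6 upwards and 12 downwards, with a median of -0.22, beside 16.1% and 16.7%. The count of 18 fell to 8 without a filter, to 10 without moderation, and to 11, 10 and 11 without 2-HG(-) replicate 1, 2-HG(-) replicate 3 and 2-HG(+) replicate 2, and the count of 19 in 2MUT cells fell to 12 without moderation. The difference of the changes could be fitted for 40 of them and was past the threshold for 19, with 15 positive (the change in 2MUT above that with 2-HG, whatever the sign of either) and 4 negative, beside 39.4% of all genes.

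Genes that regulate the binding proteins were counted next. Of the proteases that cut them, their inhibitors and the convertases that process the ligands, 7 of 11 changed in 2MUT cells, 6 of them upwards, and 5 of 9 changed with 2-HG, 3 of them upwards, beside 33.8% and 32.8% of all tested genes. Stc1, Stc2 and Ctsd were past the threshold in both. Stc2, whose product stanniocalcin-2 blocks pappalysin, rose from 6.90 ± 2.92 to 23.9 ± 6.17 RPM (SD, n = 3) in 2MUT cells, a change of 1.71 (SE 0.29, limma adjusted p = 0.00102), and from 1.84 ± 0.607 to 5.24 ± 1.19 RPM with 2-HG, a change of 1.14 (SE 0.20, adjusted p = 0.00244). It was higher in 3 of 3 libraries in each case. The call was lost without moderation in 2MUT cells (adjusted p = 0.0599) and without a filter with 2-HG (0.061). Stc1, its paralogue and likewise a pappalysin inhibitor, rose from 48.9 ± 7.91 to 96.7 ± 2.93 RPM in 2MUT cells (change 0.98, SE 0.13, limma adjusted p = 0.000203) and fell from 14.3 ± 3.09 to 6.78 ± 3.49 RPM with 2-HG (change -1.05, SE 0.28, adjusted p = 0.0197). Ctsd, the lysosomal protease cathepsin D, did the same, with a change of 0.47 (SE 0.09) in 2MUT cells and -0.70 (SE 0.20) with 2-HG, the latter being -0.43 without 2-HG(+) replicate 2. The calls of Stc1 and Ctsd with 2-HG were each lost under 5 of 16 alternatives, leaving out 2-HG(-) replicate 1 among them.

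Of the adaptors, phosphatases and PI3K subunits next to the receptor, 7 of 21 changed in 2MUT cells (3 upwards and 4 downwards) and 8 of 20 with 2-HG (1 upwards and 7 downwards), beside 33.8% and 32.8% of all tested genes, so that the share in 2MUT cells was near that of all genes. Shc1, an adaptor that links receptor kinases to Ras, fell by 0.98 (SE 0.08) in 2MUT cells, with all 3 libraries lower, at 642, 627 and 648 RPM against 1362, 1230.0 and 1194 RPM. With 2-HG its change was -0.49 (SE 0.15, limma adjusted p = 0.0282), although a 2-HG(+) library at 698.2 RPM overlapped a 2-HG(-) library at 697.8 RPM. Pik3r1, the regulatory subunit of PI3K, had a change of 0.44 (SE 0.16, limma adjusted p = 0.0478) in 2MUT cells, where libraries overlapped, and fell by 0.64 (SE 0.16, adjusted p = 0.013) with 2-HG. Grb14, an adaptor that dampens receptors of the insulin family, fell from 72.8 ± 2.82 to 29.1 ± 1.01 RPM with 2-HG, a change of -1.29 (SE 0.10), and was at -0.13 (SE 0.13) in 2MUT cells. The calls of Shc1 with 2-HG and of Pik3r1 in 2MUT cells were each lost under 9 of 16 alternatives.

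Of the CCN proteins, which carry an IGFBP-like domain, 3 of 5 rose in 2MUT cells, and 4 of 5 changed with 2-HG, 1 of them upwards and 3 downwards, beside 16.5% of all tested genes higher in 2MUT cells and 32.8% changed with 2-HG. Wisp1 rose in both, from 31.1 ± 3.46 to 64.3 ± 4.80 RPM (SD, n = 3) in 2MUT cells and from 56.0 ± 11.6 to 86.1 ± 11.5 RPM with 2-HG, and the call with 2-HG was lost under 3 of 16 alternatives, leaving out 2-HG(+) replicate 2 among them. Cyr61, a target of YAP signalling, had a change of 0.67 (SE 0.11) in 2MUT cells and of -0.55 (SE 0.15) with 2-HG, and the latter call was lost under 4 of 16 alternatives and its value was -0.36 without 2-HG(+) replicate 1. Wisp2 fell from 47.7 ± 4.19 to 12.1 ± 1.39 RPM with 2-HG, a change of -1.89 (SE 0.13, limma adjusted p = 8.21e-06), and was at 59.1 ± 11.2 and 61.2 ± 6.25 RPM in Control and 2MUT cells. Among the regulators of the Igf2 locus and of Igf2 mRNA, 2 of 6 changed in 2MUT cells (1 in each direction) and 1 of 6 rose with 2-HG, which is near the 33.8% of all tested genes changed in 2MUT cells and the 16.1% higher with 2-HG. Insr, the insulin receptor, was the only gene tested among the other ligands, receptors and carriers, and its changes of 0.12 (SE 0.10) and -0.14 (SE 0.12) did not pass the threshold.

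**Figure D4:**
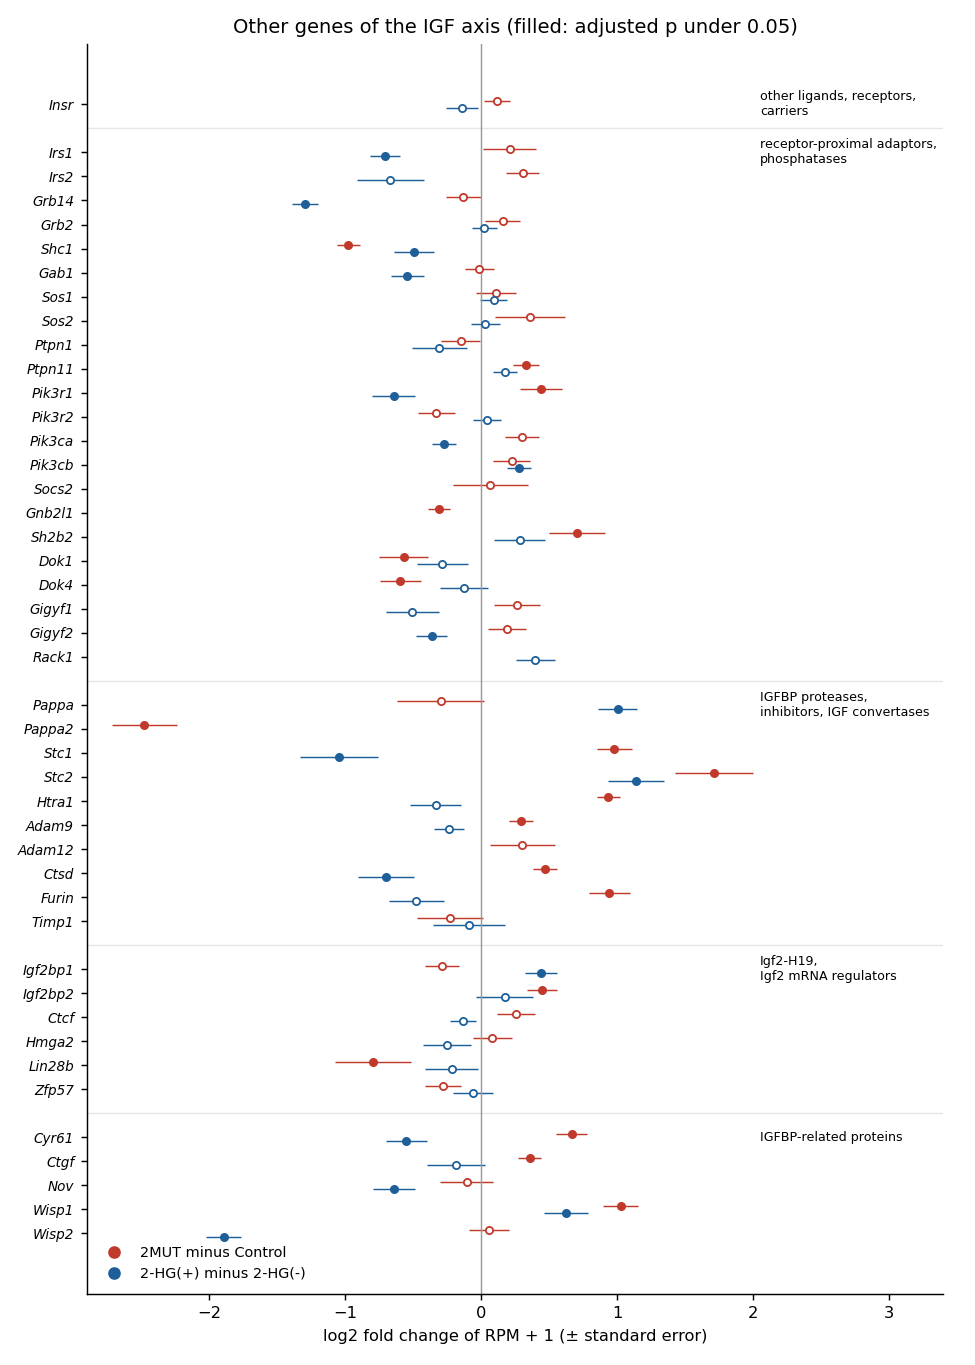
Changes of tested genes of the other IGF-axis lists on the log2(RPM + 1) scale, with standard errors, in 2MUT against Control (red) and 2-HG(+) against 2-HG(-) (blue), filled where the adjusted p over all tested genes was under 0.05. Stc2 and Wisp1 lie to the right in both experiments, and Stc1, Ctsd, Cyr61 and Pik3r1 lie to the right in 2MUT and to the left with 2-HG. Gnb2l1 and Rack1 are names of the same gene in the 2 tables.

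The fibroblast markers moved with the groups as well. Their sum was 15274 to 17269 RPM in Control and 13597 to 14042 RPM in 2MUT libraries, with 1 marker higher and 7 lower, and 21861 to 23478 RPM in 2-HG(-) and 15525 to 16609 RPM in 2-HG(+) libraries, with 2 higher and 5 lower. Their part in the changes of the IGF genes was not tested.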

How the data were processed

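RNA of 12 libraries of MEF cells was read with an Ion AmpliSeq mouse transcriptome kit. The authors aligned reads to the AmpliSeq mouse transcriptome reference with TMAP, obtained reads per gene from the AmpliSeqRNA plug-in, and deposited them as RPM, in 1 table per experiment; the genome build, and whether counting used strand, are not given in the sources used here. Groups came from the sample labels, and 0 columns were left unused. Each library held 6472439 to 18363768 reads, and every RPM value (100%) was a whole number of reads within 0.05, so read counts were recovered from the deposited RPM.

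Changes were fitted within a table with limma 3.58.1 (R 4.3.3, trend in the variance) on log2(RPM + 1) for genes whose mean reached 1 RPM, two-sided, with Benjamini-Hochberg adjustment at 0.05. The difference of the changes was a contrast over 12 libraries. edgeR 4.0.16 called 3764 (2MUT) and 3546 (2-HG) genes on the recovered reads, and DESeq2 1.42.0 called 3748 and 3666. Other alternatives were an added value of 0.1, no filter, a filter of 10 RPM, median-of-ratios and quantile scaling, no moderation, no trend, the replicate number as a block, and leaving out 1 library at a time. The fits were also run on simulated data with a common spread for all genes, which cannot check error rates in these libraries.

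The 10 genes and the lists were chosen with earlier results of these data known. All 10 are named, as are genes of the other lists called in both comparisons, the 4 largest called changes of each comparison (at least 10 RPM in the higher group, groups not overlapping), and Idh2; 1 gene under this rule is not reported here. Coordinates come from GENCODE M21 and promoter windows from RefSeq, which held windows for all 10. Within groups, no pair of libraries agreed within sampling noise, with chi-square per degree of freedom of 5.57 to 31.4.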

Additional observations from a re-analysis of the deposited data

Results flagged for a closer look

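The changes of several genes differed between the experiments by the contrast fitted over all 12 libraries (limma, Benjamini-Hochberg adjusted p under 0.05), in which 39.4% of all genes passed. Among the IGF genes the log2 change in 2MUT minus that with 2-HG was 3.65 for Igf1, 1.04 for Igf1r and 5.23 for Igfbp7. Each of these 3 was higher in 3 of 3 2MUT libraries than in Control and lower in 3 of 3 2-HG(+) libraries than in 2-HG(-). The genes were chosen with both changes known, so this is a description.

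Among the other genes named, the difference was 2.03 for Stc1 (adjusted p = 0.000465), 1.17 for Ctsd (0.0021), 1.21 for Cyr61 (0.000432) and 1.08 for Pik3r1 (0.00344), all of them positive in 2MUT and negative with 2-HG. It was also past the threshold at 1.95 for Wisp2 (5.76e-06) and 1.16 for Grb14 (5.29e-05), which changed with 2-HG and did not pass the threshold in 2MUT cells. Shc1, lower in both, differed by -0.49 (0.0446), and this call was lost under 15 of 20 alternatives. Mouse Idh2 was lower in 2MUT and higher in 2-HG(+) cells, and its difference was -1.07 (0.000164).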

How the results depend on the processing

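The directions of Igf1, Igf2, Igf1r, Igfbp4 and Igfbp7 held in both comparisons under each alternative that tested them, and so did their calls except that of Igf1r with 2-HG, which was lost without a filter (adjusted p = 0.0729), without moderation (0.0563) and without the 3 libraries named in the report. Its change lay between -0.53 and -0.39 with 1 library left out. With a filter of 10 RPM, Igf1 was no longer tested in 2MUT cells and neither Igf1 nor Igf2 with 2-HG, so 4 and 3 genes of the set were called in place of 5. The signs that turned belonged to changes near 0. With 1 library left out, the change of Igf2r with 2-HG lay between -0.11 and 0.038, that of Wisp2 in 2MUT cells between -0.029 and 0.21, and the difference for Igf2 between -0.19 and 0.059, while the latter was 0.69 with an added value of 0.1. The difference passed the threshold for Igfbp6 with quantile normalization, the replicate block, or without Control replicate 2 or 2-HG(-) replicate 2, and for Igfbp4 without 2-HG(+) replicate 1. Without moderation, 2244 genes were called in 2MUT cells in place of 3741 and 2237 with 2-HG in place of 3405, and 12 in place of 19 and 10 in place of 18 genes of the other IGF-axis lists. Without a filter, 2051 genes and 8 list genes were called with 2-HG. Leaving out 1 library gave 10 to 19 list genes with 2-HG, with 11 called without 2-HG(-) replicate 1, 10 without 2-HG(-) replicate 3 and 11 without 2-HG(+) replicate 2. Over the single genes, 796 of the alternatives kept the direction and the side of the threshold, 64 lost a call, 10 gained one and 7 turned the sign. With 2-HG, leaving out 1 library ended the calls of Stc1 (2-HG(-) replicate 1 or 2, or 2-HG(+) replicate 3), Ctsd (any 2-HG(-) replicate), Cyr61 (2-HG(-) replicate 1 or 3), Wisp1 (2-HG(+) replicate 2), Pik3r1 (2-HG(-) replicate 3), Shc1 (2-HG(-) replicate 2 or 3, or 2-HG(+) replicate 2 or 3) and Idh2 (2-HG(-) replicate 3 or 2-HG(+) replicate 2), at adjusted p of 0.0518 to 0.0936, and in 2MUT cells it ended that of Pik3r1 (Control replicate 1 or 3, or 2MUT replicate 1 or 3), at 0.0748 to 0.17. The causes were not tested.

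Deviations from the group mean correlated at 0.0708, 0.0293 and 0.0319 between libraries of the same replicate number in the 2MUT and Control table. In the 2-HG table they correlated at -0.457, -0.158 and 0.0572. Libraries of different numbers correlated between the groups at up to 0.0888 in the first table and 0.48 in the second. Whether libraries shared a culture or a batch was not tested. With the replicate number as a block, 3898 genes were called in 2MUT cells and 2503 with 2-HG, 5 genes of the set were called in each, and 17 and 14 list genes. Scaling moved the share of called genes that were higher with 2-HG from 49.0% to 53.2% at most. Depth limits Igfbp2 and Igfbp3, and Igf1 and Igf2 in the libraries with under 20 reads.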

Other observations

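Of the other ligands, Ins2, an insulin gene next to Igf2 on chromosome 7, had 0 reads in each of the 3 Control libraries and 3, 3 and 9 reads in the 2MUT libraries, and it was listed at 0 in all 6 libraries of the 2-HG table. It was chosen after its values were seen, and at a mean of 0.714 RPM in 2MUT cells it was below the filter and was not tested. The antisense transcript Igf2os, which overlaps Igf2 on the other strand, was at or below 0.413 RPM in every library.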
